A study of Mus musculus with 6 samples.

Results

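The genes described are 10 regulators of the G1 phase of the cell cycle, namely the D cyclin genes Ccnd1, Ccnd2 and Ccnd3, the E cyclin genes Ccne1 and Ccne2, the kinase genes Cdk2, Cdk4 and Cdk6, and the CDK inhibitor genes Cdkn1b and Cdkn2c. They were listed by name, and each was read from its brightest probe set over the 6 arrays among those annotated with 1 gene symbol. All 10 were found among the 19938 genes measured, 9 of them with 1 probe set and Cdkn1b with 2, and all 10 had a mean signal above 5, which is about the median of an array. The arrays compare 4T1 cells given 500 nM TKI258 for 16 h (3 arrays) with 4T1 cells given the vehicle DMSO for 16 h (3 arrays). 4T1 is a mouse mammary carcinoma line, and TKI258, also called dovitinib, is an inhibitor of receptor tyrosine kinases that include the FGF, VEGF and PDGF receptors. Both groups were in DMEM with 10% FCS, and each array is a separate dish of this 1 line at 1 dose and 1 time, so p-values measure the spread between dishes.

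A cell that commits to division in G1 does so through cyclin-dependent kinases, or CDKs. D cyclins, made in response to growth factor signals, bind CDK4 and CDK6 and phosphorylate the retinoblastoma protein RB, which frees E2F factors to switch on S phase genes. Cyclin E with CDK2 continues the phosphorylation, and the inhibitors p27 (Cdkn1b) and p18-INK4C (Cdkn2c) hold these kinases back, p27 mainly at cyclin E with CDK2 and p18-INK4C at CDK4 and CDK6. Values are log2 signals, and a change is TKI258 minus DMSO on that scale.

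RefSeq promoter windows (GRCm38.p6) were matched to 7 of the 10 genes, and Ccnd1, Ccnd2 and Ccne2 had none in the table used. The 250 bases before the annotated start are printed for genes that fell (Ccne1, Cdk2), rose (Cdkn1b, Cdkn2c at its upstream start) and did not pass the test (Cdk4), so that promoters of each kind of response can be set side by side. They run 5′ to 3′ on the gene's strand, with capitals on every match, on either strand, to 8 motifs: E2F (TTTCGCGC), an E2F variant (TTTGGCGC), FOXO (GTAAACA), AP-1 (TGANTCA), ETS (CCGGAAG), E-box (CACGTG), GC box (GGGCGG) and CRE (TGACGTCA).
Ccne1, chr7:38107491-38107740, minus strand: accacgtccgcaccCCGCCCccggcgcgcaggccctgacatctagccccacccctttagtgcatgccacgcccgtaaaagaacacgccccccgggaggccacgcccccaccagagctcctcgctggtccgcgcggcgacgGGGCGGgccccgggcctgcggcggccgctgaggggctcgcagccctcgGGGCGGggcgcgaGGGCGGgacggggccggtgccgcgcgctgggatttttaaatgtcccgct
Cdk2, chr10:128705052-128705301, minus strand: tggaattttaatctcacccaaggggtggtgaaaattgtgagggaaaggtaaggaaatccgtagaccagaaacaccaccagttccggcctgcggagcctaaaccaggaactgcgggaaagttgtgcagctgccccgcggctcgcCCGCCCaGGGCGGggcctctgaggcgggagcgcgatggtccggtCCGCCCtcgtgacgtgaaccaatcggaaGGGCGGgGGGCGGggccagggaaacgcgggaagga
Cdkn1b, chr6:134920151-134920400, plus strand: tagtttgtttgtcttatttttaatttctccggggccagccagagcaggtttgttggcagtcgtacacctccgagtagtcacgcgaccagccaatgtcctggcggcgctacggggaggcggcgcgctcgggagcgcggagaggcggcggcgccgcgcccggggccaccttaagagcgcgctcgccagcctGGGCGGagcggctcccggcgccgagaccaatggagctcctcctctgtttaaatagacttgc
Cdkn2c, chr4:109666757-109667006, minus strand: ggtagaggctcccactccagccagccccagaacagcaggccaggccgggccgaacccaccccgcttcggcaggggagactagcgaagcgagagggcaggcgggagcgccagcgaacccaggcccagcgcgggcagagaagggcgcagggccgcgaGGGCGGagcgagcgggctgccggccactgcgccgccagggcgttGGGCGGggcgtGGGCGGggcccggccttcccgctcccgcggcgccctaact
Cdk4, chr10:127063285-127063534, plus strand: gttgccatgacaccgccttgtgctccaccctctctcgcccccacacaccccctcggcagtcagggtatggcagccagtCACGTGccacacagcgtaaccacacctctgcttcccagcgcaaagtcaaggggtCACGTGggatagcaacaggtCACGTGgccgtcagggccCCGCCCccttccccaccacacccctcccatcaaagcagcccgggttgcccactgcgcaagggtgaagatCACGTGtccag

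All capitals in these windows are GC boxes, except 4 E-box matches in the Cdk4 window, and no matches of different motifs overlap. The Cdk4 matches end 166, 112, 92 and 5 bases before the start. Of the 32851 promoter windows of this length, 6.02% hold an E-box and 0.0213% hold at least 4. GC boxes numbered 4 for Ccne1, 5 for Cdk2, 3 for Cdkn2c, 1 each for Cdkn1b and Cdk4, and 2 and 1 in the Ccnd3 windows that are not printed. Of all windows 32.7% hold at least 1, 8.47% at least 3, 4.09% at least 4 and 1.93% at least 5. Among the windows not printed, the upstream window of Ccnd3 has a FOXO match (in 3.17% of windows) and its downstream window an ETS match (in 6.91%), and Cdk6 has 1 E-box. The E2F motif, its variant, AP-1 and CRE, found in 0.256%, 0.417%, 6.75% and 1.55% of all windows, had no match in the 9 windows of these genes, which says only that these letters are not there. The matches describe the sequences and were not set against the changes below by a test.

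After TKI258, 6 of the 10 genes fell, 2 rose and 2 did not pass in limma at an adjusted p below 0.05. Over all genes 12.6% fell, 14.4% rose and 27% passed in either direction. The share of these genes that fell, 60%, is above that of all genes, and the share that rose, 20%, is near it. The 10 genes were chosen with earlier results of these data known, so their count is no independent support. All genes include 8702 with a mean below 5, whereas the 10 genes are all above it. In a fit to genes with a mean above 5 alone, 2819 fell and 3041 rose. These are more calls among fewer genes, so the shares over all genes are low for genes this bright. The E cyclins and cyclin D1 had the largest changes, at close to 2-fold lower or more, and both inhibitor genes were about 1.3-fold higher. The median change of the 10 genes was -0.27, against 0.01 over all genes. In all 10 genes the 3 TKI258 arrays lay wholly above or below the 3 DMSO arrays, with TKI258 lower in 6 and higher in 4. Such a separation was seen in 40.2% of all genes, with TKI258 lower in 18.8% and higher in 21.4%. In RNA from whole dishes, fewer cells in a given cycle phase and less RNA per cell cannot be told apart.

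**Figure D1:**
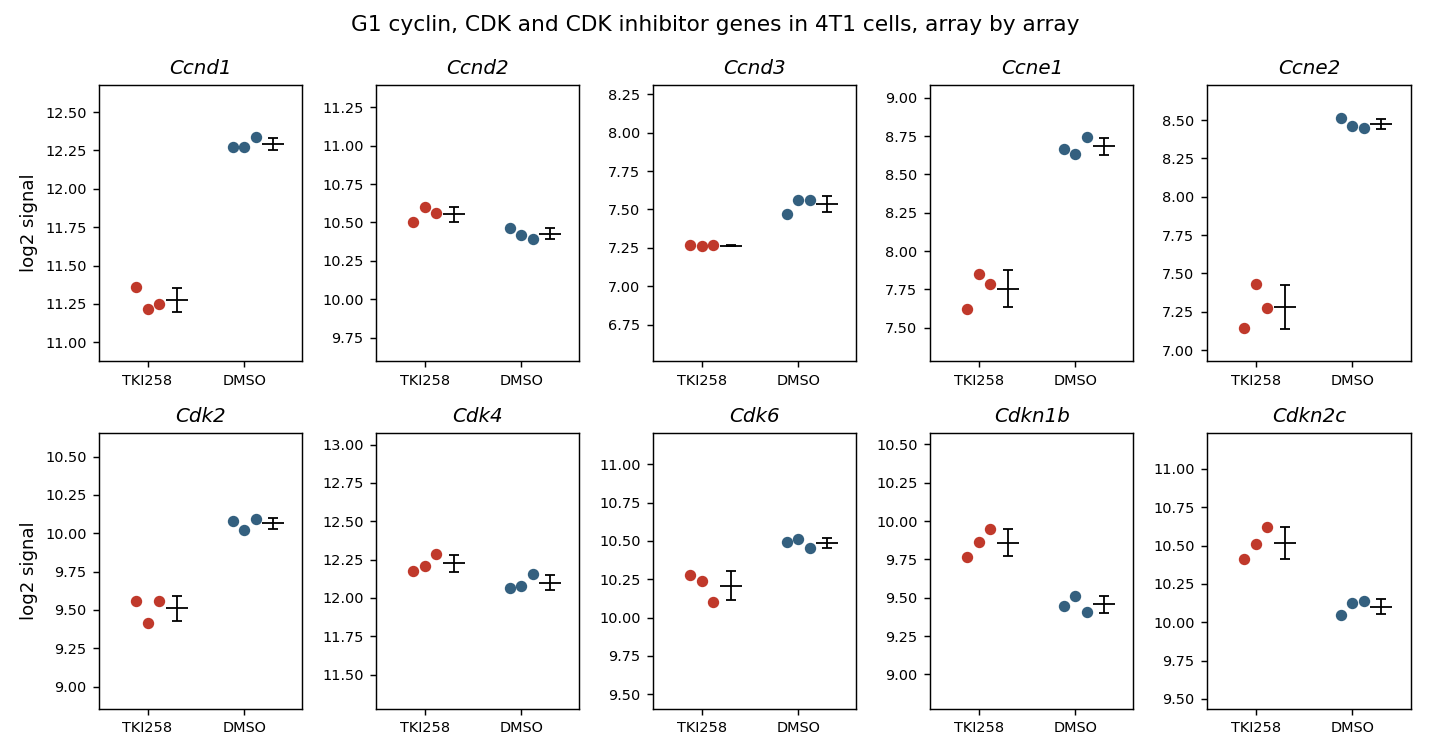
Log2 signal of each gene on each array, TKI258 at left and DMSO at right in each panel. Points are arrays, the bar beside them is the mean with the SD (n = 3), and every panel spans the same height on the log2 scale. In each panel the 2 groups of points are apart, widely for Ccnd1, Ccne1 and Ccne2 and narrowly for Ccnd2 and Cdk4.

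The D cyclins, which carry growth factor signals to CDK4 and CDK6, did not change as one. Ccnd1, the D cyclin best known as a target of ERK signalling, had log2 signals of 11.36, 11.21 and 11.25 on TKI258 arrays, against 12.27, 12.27 and 12.34 on DMSO arrays. The TKI258 arrays are all lower and the gap is many times the spread within either group. Ccnd1 fell by 1.02 on the log2 scale (SE 0.07, n = 3 arrays per group, limma adjusted p = 9.54e-06), a fold change of 0.493. In size its change exceeded that of 98.0% of all genes.

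Ccnd2, which encodes cyclin D2, had 10.50, 10.60 and 10.56 on TKI258 arrays and 10.46, 10.42 and 10.39 on DMSO arrays. The groups are apart by a narrow margin, with TKI258 the higher. The change of 0.13 did not pass (SE 0.06, limma adjusted p = 0.179), and its 95% interval was -0.01 to 0.27, so a small rise is within it and a fall like that of Ccnd1 is not. With limma's trend and robust options, a choice that changes only how the spread is estimated, Ccnd2 passed (adjusted p = 0.045).

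Ccnd3, which encodes cyclin D3, had 7.27, 7.26 and 7.26 on TKI258 arrays, against 7.47, 7.56 and 7.56 on DMSO arrays. Every TKI258 array is lower, and these 3 values are the most alike of any gene described. Ccnd3 fell by 0.27 (SE 0.06, limma adjusted p = 0.00989), a fold change of 0.831.

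Within each array, Ccnd1 minus Ccnd2 was 0.61 to 0.86 under TKI258 and 1.81 to 1.95 under DMSO, a shift of -1.15. Levels of different probe sets are not comparable, so only the shift between groups has a meaning. The same shift was -0.75 for Ccnd1 minus Ccnd3 and 0.40 for Ccnd2 minus Ccnd3, and in none of these 3 pairs did the groups overlap. Each gave an exact two-sided permutation p of 0.1 over arrays, the smallest that 3 against 3 allows, and an adjusted p of 0.114 over the 8 pairs compared. For the pairs with Ccnd2 this outcome was fixed by the single genes. Ccnd2 lay wholly higher under TKI258 and its partners wholly lower, so the difference had to be apart.

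The E cyclins, which activate CDK2 at the entry to S phase, both fell. Ccne2 had 7.14, 7.43 and 7.28 on TKI258 arrays, against 8.51, 8.46 and 8.45 on DMSO arrays. This was the largest change of the 10 genes by its estimate, and the TKI258 arrays were also the most spread, with an SD of 0.14. Ccne2 fell by 1.19 (SE 0.08, limma adjusted p = 1.13e-05), a fold change of 0.438.

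Ccne1 had 7.62, 7.85 and 7.79 on TKI258 arrays, against 8.66, 8.64 and 8.75 on DMSO arrays. Again no array of one group reached the other, and TKI258 replicate 1 was the lowest of its group for both E cyclins. Ccne1 fell by 0.93 (SE 0.08, limma adjusted p = 3.55e-05), a fold change of 0.526. Ccne1 minus Ccne2 within an array was 0.42 to 0.51 under TKI258 and 0.15 to 0.30 under DMSO, so Ccne2 had the larger fall by 0.26 (exact permutation p = 0.1, adjusted p = 0.114).

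**Figure D2:**
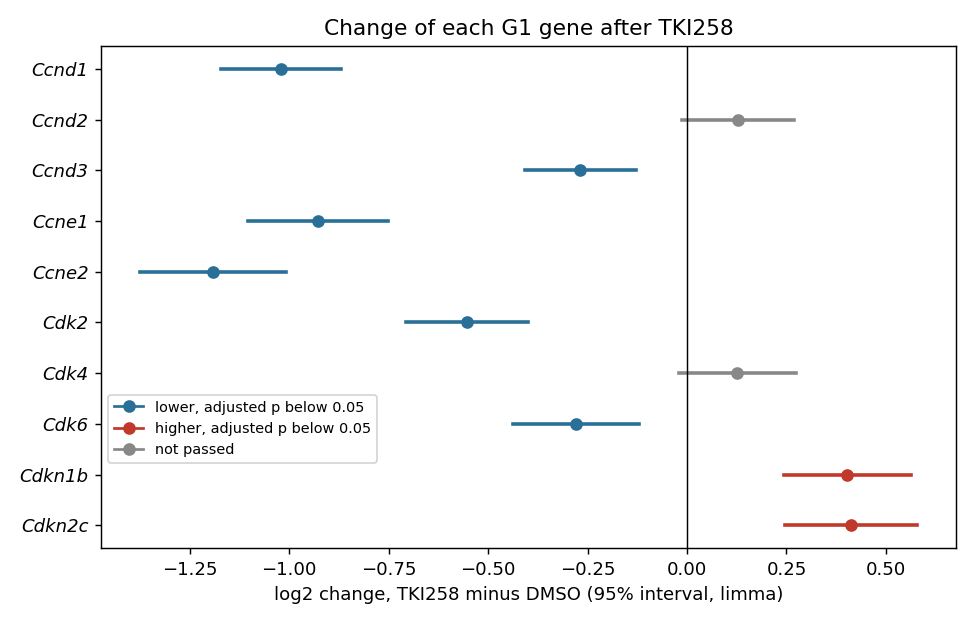
Log2 change, TKI258 minus DMSO, of each gene as a point with its 95% interval from limma (n = 3 arrays per group). Ccne2, Ccnd1 and Ccne1 lie farthest left at -1.19, -1.02 and -0.93, the 2 inhibitor genes lie right of 0 at 0.40 and 0.41, and the intervals of Ccnd2 and Cdk4 cross 0.

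Among the kinase genes, Cdk2, the partner of cyclin E, had the largest change. It had 9.56, 9.42 and 9.56 on TKI258 arrays, against 10.08, 10.02 and 10.09 on DMSO arrays. All TKI258 arrays are lower, and Cdk2 fell by 0.55 (SE 0.07, limma adjusted p = 0.000295), a fold change of 0.681.

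Cdk6, a partner of the D cyclins, had 10.28, 10.24 and 10.10 on TKI258 arrays, against 10.50, 10.51 and 10.45 on DMSO arrays. The groups do not overlap, though TKI258 replicate 3 stands lower than the other two. Cdk6 fell by 0.28 (SE 0.07, limma adjusted p = 0.0151), a fold change of 0.824. The call was lost without DMSO replicate 1 (adjusted p = 0.0554) and without DMSO replicate 2 (adjusted p = 0.058), over a range of 0.000919 to 0.058 in 14 alternatives.

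Cdk4, the other D cyclin partner, had 12.18, 12.21 and 12.29 on TKI258 arrays and 12.07, 12.08 and 12.16 on DMSO arrays. TKI258 is the higher, with the closest arrays of the 2 groups almost touching, and the change of 0.13 did not pass (SE 0.06, limma adjusted p = 0.206). The 95% interval was -0.02 to 0.27. With the trend and robust options Cdk4 passed as higher (adjusted p = 0.0232). This is the gene whose promoter window holds the 4 E-boxes printed above. The E-box is the motif bound by MYC with MAX, and Myc itself fell by 0.67 (limma adjusted p = 6.13e-05). Cdk6, which fell, has 1 E-box. A link between Myc, the motif and either kinase gene was not tested.

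Set against each other within an array, Cdk2 minus Cdk4 shifted by -0.68, with -2.79 to -2.62 under TKI258 and -2.06 to -1.99 under DMSO. Cdk4 minus Cdk6 shifted by 0.41, with 1.90 to 2.19 under TKI258 and 1.56 to 1.71 under DMSO. Neither pair overlapped between groups, and each had an exact permutation p of 0.1 and an adjusted p of 0.114. Both outcomes were fixed by the single genes, as Cdk4 lay wholly higher under TKI258 and Cdk2 and Cdk6 wholly lower.

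Both inhibitor genes rose. Cdkn1b, which encodes p27, had 9.77, 9.86 and 9.95 on TKI258 arrays, against 9.45, 9.51 and 9.41 on DMSO arrays. The lowest TKI258 array is above the highest DMSO array, and Cdkn1b rose by 0.40 (SE 0.07, limma adjusted p = 0.00233), a fold change of 1.32. A dimmer second probe set of Cdkn1b gave 7.91, 8.16 and 8.47 on TKI258 arrays and 7.74, 7.79 and 7.74 on DMSO arrays. Its change of 0.42 is of like size but its TKI258 arrays are more spread, and it did not pass when tested singly (SE 0.14, limma adjusted p = 0.106 over all probe sets).

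Cdkn2c, which encodes p18-INK4C, had 10.41, 10.51 and 10.62 on TKI258 arrays, against 10.05, 10.12 and 10.14 on DMSO arrays. All TKI258 arrays are higher, and Cdkn2c rose by 0.41 (SE 0.07, limma adjusted p = 0.00244), a fold change of 1.33. Cdkn1b minus Cdkn2c was -0.68 to -0.64 under TKI258 and -0.73 to -0.60 under DMSO. These ranges overlap and the shift was -0.01 (exact permutation p = 1, adjusted p = 1), which does not show that both genes respond alike. Cdkn1b minus Ccnd1, an inhibitor set against the cyclin it can bind, was -1.59 to -1.30 under TKI258 and -2.93 to -2.76 under DMSO, a shift of 1.42 and the largest of the 8 pairs (exact permutation p = 0.1, adjusted p = 0.114). That separation was also fixed, since Cdkn1b lay wholly higher under TKI258 and Ccnd1 wholly lower.

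**Figure D3:**
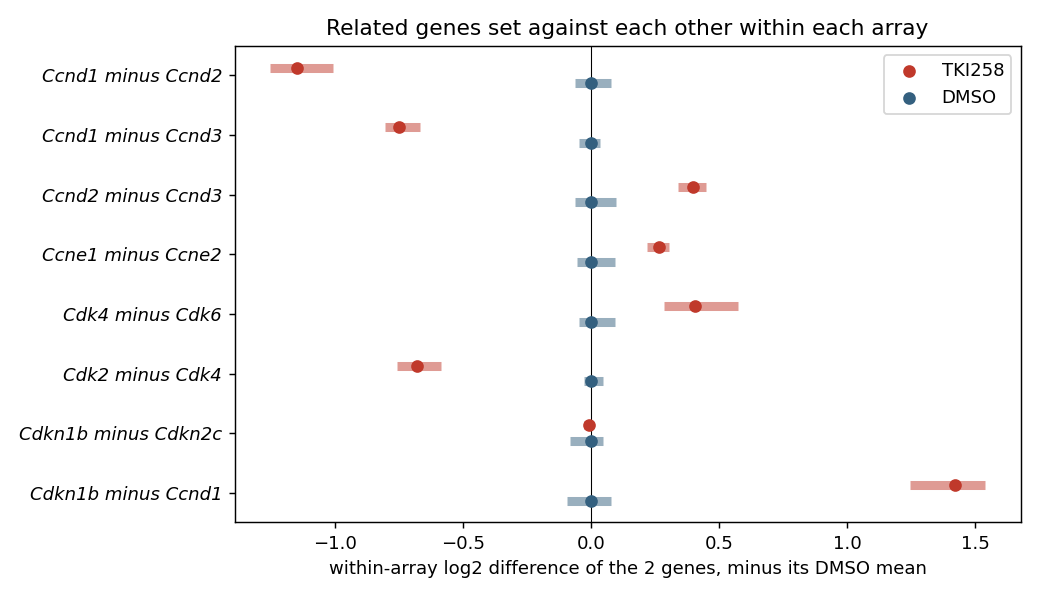
Difference of log2 signal between 2 genes within each array, less the DMSO mean of that pair, with TKI258 above DMSO in each row. Dots are group means and bands run from the lowest to the highest of 3 arrays. The groups are apart in 7 of the 8 pairs, and Cdkn1b minus Cdkn2c, at -0.01, is the pair that overlaps. A pair of a gene wholly higher and a gene wholly lower under TKI258 had to be apart. Only Ccnd1 minus Ccnd3, Ccne1 minus Ccne2 and Cdkn1b minus Cdkn2c are not of this kind.

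The spread between dishes was larger under TKI258 than under DMSO in 9 of the 10 genes, Ccnd3 being the exception. Over all genes this held for 62.1%. The SD of the 10 genes ran between 0.0062 and 0.143 under TKI258 and between 0.0309 and 0.0577 under DMSO.

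By profile over the 6 arrays, each centred on its own mean, the genes nearest to Ccnd1 were Ano1, a chloride channel gene, Fhl2, a LIM domain gene, and Dusp6, a phosphatase that switches off ERK. Their root mean square differences from Ccnd1 were 0.0309, 0.0372 and 0.0379 log2 units among 10841 candidates, which were the genes with a mean above 5 less those with clone or predicted names. Nearest to Cdkn1b were Ext1, a heparan sulfate polymerase gene, Syne4, a nuclear envelope gene, and Cebpg, a bZIP factor gene, at 0.0269, 0.0303 and 0.0313. With 2 groups of 3 arrays, this likeness is mostly a like difference between groups.

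Other genes were taken from 8 lists drawn from textbook knowledge. Earlier results of these data were known by then, so no count from the lists is independent support. The lists include 23 cyclins and CDKs outside the core cycle and 10 upstream factor genes, so not all are cell cycle genes. Of 90 measured genes on the lists 43 fell, 10 rose and 37 did not pass. That is 47.8% lower and 11.1% higher, and the median change was -0.23. Over all genes 12.6% were lower and 14.4% higher, or 27% in either direction, and a share over all genes stands beside each list below. On the lists Ccna1 alone had a mean below 5, so the shares over all genes are low for genes this bright. Cdkn1a, whose probe set is annotated with several symbols, and Ccnb1, for which no probe set annotated with that symbol alone was found, fell outside the rule of 1 symbol and were not analysed here. Skp1a, an older symbol, is measured as Skp1.

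Of 5 other genes named as CDK inhibitors, 0 passed in limma, against 27% of all genes. Of the same 5, 0 had an unadjusted p below 0.05, and 0 passed with the trend and robust options. Their changes ran from -0.10 to 0.12, with Cdkn3 at 0.12 (adjusted p = 0.263) and Cdkn2a, which encodes p16-INK4A and ARF, at 0.10 (adjusted p = 0.288). Cdkn2a, Cdkn2b and Cdkn1c were dim, at 5.33, 5.53 and 5.69 under TKI258 and 5.23, 5.47 and 5.65 under DMSO. An array median is about 5 and there are no detection calls, so whether these genes are expressed is not known. No test set the 5 genes against Cdkn1b and Cdkn2c.

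The machinery that turns CDKs on fell in part. Of 8 genes of the CDK-activating kinase, the CDC25 phosphatases and the WEE1 family, 5 fell and 3 did not pass. The share lower was 62.5%, against 12.6% of all genes. Cdc25a, the phosphatase that activates CDK2 in G1, had a log2 signal of 8.998 ± 0.046 under TKI258 and 9.764 ± 0.029 under DMSO (SD, n = 3 each), a change of -0.77 (limma adjusted p = 2.85e-05). Cdc25b, Cdc25c, the cyclin H gene Ccnh and the inhibitory kinase gene Pkmyt1 had changes of -0.43, -0.31, -0.29 and -0.30. Pkmyt1 restrains CDK1, so the 5 genes that fell are not all activators.

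Of 13 genes for ubiquitin ligases that mark cyclins or p27 for breakdown, 4 fell and 9 did not pass. The share lower was 30.8%, against 12.6% of all genes, which is low for genes this bright. It is therefore not read as an excess. Skp2, the subunit that recognises p27, had 8.67 ± 0.09 under TKI258 and 9.44 ± 0.02 under DMSO (SD, n = 3 each), a change of -0.76 (limma adjusted p = 4.85e-05). Its cofactor gene Cks1b fell by 0.39 (adjusted p = 0.00227), the related Cks2 by 0.29 (adjusted p = 0.0365), and Fbxw7, which recognises cyclin E, by 0.29 (adjusted p = 0.0217). The count of 4 was 2 without DMSO replicate 1, without DMSO replicate 2 or without TKI258 replicate 2. The p27 transcript was higher and those of Skp2 and Cks1b lower on the same TKI258 arrays, and no protein was measured.

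Downstream of the G1 kinases, 7 of 13 pocket protein and E2F genes fell and 2 rose. These are 53.8% lower and 15.4% higher, against 12.6% and 14.4% of all genes. Rb1, which encodes RB, had 8.39 ± 0.10 under TKI258 and 7.13 ± 0.09 under DMSO (SD, n = 3 each), a rise of 1.25 (limma adjusted p = 7.55e-06). The related pocket gene Rbl2 rose by 0.40 and Rbl1 fell by 0.48. Among E2F genes, the repressor E2f8 fell by 1.19 and E2f4 by 0.61, while E2f1, whose protein RB holds, did not pass at -0.01.

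All 13 measured S phase entry genes fell, against 12.6% of all genes, with a median change of -0.52. The thymidine kinase gene Tk1 had -0.86 (adjusted p = 2.77e-05), the replication licensing gene Cdc6 -0.89 (adjusted p = 4.93e-05), the ribonucleotide reductase gene Rrm2 -0.64 (adjusted p = 0.00012) and the helicase gene Mcm3 -0.64 (adjusted p = 0.000172), all in limma. Replication genes were already known to be lower in these data when the list was drawn up, so this count is no independent support. Of 5 genes for S and M phase cyclins and Cdk1, 3 fell, namely Ccnf, Cdk1 and Ccna2, with changes of -0.63, -0.47 and -0.39. The share lower was 60%, against 12.6% of all genes. Ccna1 at -0.03 and Ccnb2 at 0.14 did not pass. Ccna1 was dim, at 3.57 under TKI258 and 3.60 under DMSO, below the array medians.

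**Figure D4:**
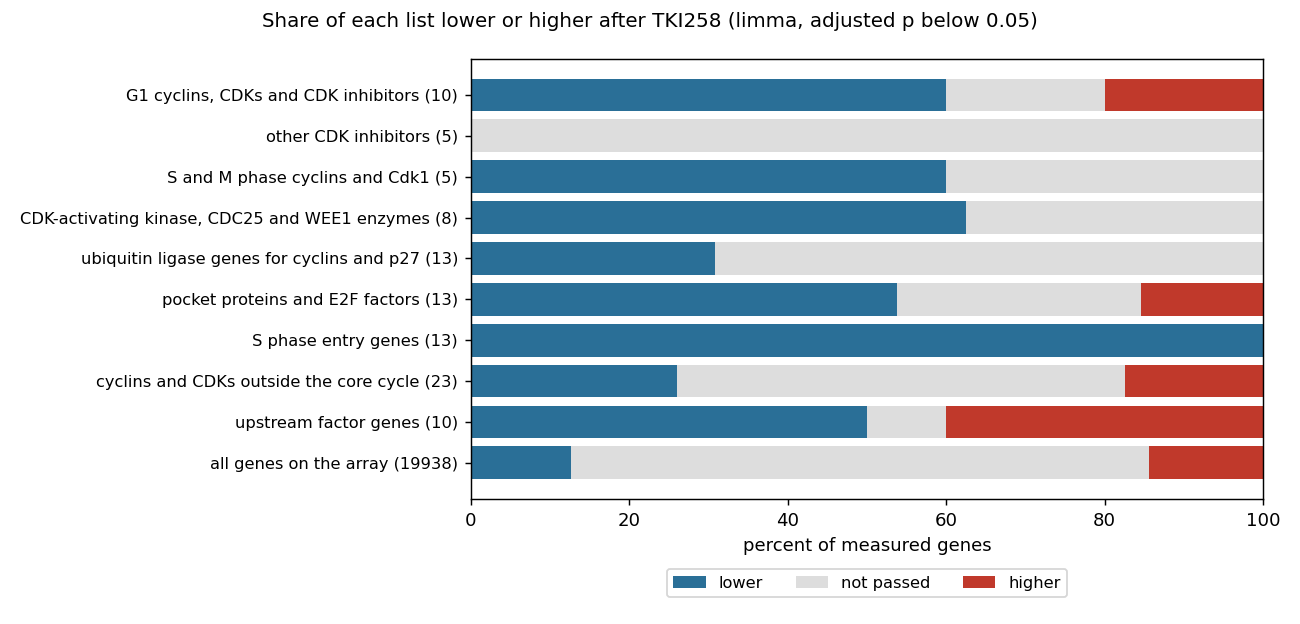
Percent of the measured genes of each list that were lower, not past the threshold or higher after TKI258 in limma, with the number of genes in brackets. The G1 genes have 60% lower and 20% higher, the 13 S phase entry genes are all lower, the 5 other CDK inhibitor genes did not pass, and of all genes 12.6% were lower and 14.4% higher.

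Cyclins and CDKs that act outside the core cycle, many of them in transcription, went both ways. Of 23 genes 6 fell, 4 rose and 13 did not pass. That is 26.1% lower and 17.4% higher, against 12.6% and 14.4% of all genes. All 23 had a mean above 5, and the shares over all genes are low for genes this bright. Neither share is therefore read as an excess. The highest were Ccng2, an atypical cyclin linked to cell cycle arrest, at 0.94 (limma adjusted p = 3.89e-05), the Mediator kinase gene Cdk19 at 0.57, Ccni at 0.53 and Cdk5 at 0.35. Cdk8, the close relative of Cdk19 in Mediator, had the opposite sign at -0.46 (adjusted p = 0.000544, against 0.000131 for Cdk19). The count of 6 was 3 without DMSO replicate 1 or without DMSO replicate 2.

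Of 10 genes for factors known to act on the Ccnd1 or Cdkn1b promoters, 5 fell and 4 rose. That is 50% lower and 40% higher, against 12.6% and 14.4% of all genes. All 10 had a mean above 5, and the shares over all genes are low for such genes. Earlier results of these data were known when the list was drawn up, so the count is no independent support. The lower ones were the ETS factor genes Etv4 at -2.09 and Etv5 at -1.94, the AP-1 genes Fosl1 at -1.92 and Jun at -0.64, and Myc at -0.67. The higher ones were the FOXO genes Foxo3 at 0.86, Foxo1 at 0.34 and Foxo4 at 0.31, whose proteins induce Cdkn1b in other settings, and Fos at 0.47. Their adjusted p in limma ran from 1.63e-06 for Etv4 to 0.00874 for Foxo4. Junb did not pass at 0.09. Whether any of these factors acted on Ccnd1 or Cdkn1b here was not tested.

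Array medians lay between 4.97 and 5.04, and correlations over genes were at least 0.9969 within groups and at most 0.9896 between them. RMA equalises the distributions of arrays, so like medians do not show like quality. The 7 epithelial markers were above the array medians. They ran from Krt8, at 11.80 under TKI258 and 11.92 under DMSO, down to Cldn3, at 6.91 under TKI258 and 6.67 under DMSO. Of the 7, 3 rose (Cdh1, Cldn3, Cldn4), Krt18 and Krt7 fell, and Krt8 and Epcam did not pass. Of 21 markers of fibroblasts, leukocytes, endothelium and adipocytes, 18 did not pass, and Dcn, Pdgfra and Cd68 rose, with changes of 2.013, 1.499 and 0.817. The mean signal over the 7 fibroblast markers was 5.81 to 5.87 on TKI258 arrays and 5.24 to 5.34 on DMSO arrays. This difference lies mostly in Dcn and Pdgfra. Col1a1, Col1a2, Col3a1, Lum and Thy1 had changes of -0.05 to 0.18 and did not pass. Pdgfra was already at 8.33 under DMSO and was at 9.83 under TKI258. For the 8 leukocyte markers it was 4.07 to 4.17 on TKI258 arrays and 4.04 to 4.06 on DMSO arrays. For the 6 endothelial and adipocyte markers it was 3.85 to 3.89 on TKI258 arrays and 3.82 to 3.93 on DMSO arrays. The pan-leukocyte gene Ptprc was at 3.73 under TKI258 and 3.76 under DMSO, near the dim end of the scale, and no marker is at 0. The part of the fibroblast marker difference in the G1 gene results was not tested.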

How the data were processed

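RNA from 6 dishes of 4T1 cells was hybridised to Affymetrix arrays. The authors deposited 1 value per probe set for 35557 probe sets, made with RMA, affy and limma per the submitters' processing notes, which give no version or order. The values were read as log2 signals from their range, since the deposited table states no scale. RMA equalises the distributions of arrays, which would hide a change shared by all genes, and array number limits the precision. There are no detection calls. Probe sets were named by the platform annotation, 21789 of them with 1 symbol, and the brightest of each gene was kept (19938 genes).

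The groups were fitted in limma 3.58.1 (R 4.3.3; lmFit, eBayes) with treatment as the only term, two-sided and with no filter on low values, with Benjamini-Hochberg adjustment across all genes and a threshold of 0.05. Checks on simulated data were made first. The 8 within-array gene pairs were compared by exact permutation of the 6 arrays. The alternatives are given at the end. Named genes are the 10 members, up to 4 per other list by smallest adjusted p (2 if none passed), short lists of calls in full, and 3 nearest profiles each for Ccnd1 and Cdkn1b; Ccnb2, Ccna1, Rbl2, E2f1, Junb and the markers were added as context after their values were seen. The members and lists were chosen with earlier results of these data known. Promoter sequences are from RefSeq.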

Additional observations from a re-analysis of the deposited data

Results flagged for a closer look

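A second, dimmer probe set of Cdkn1b lies outside the comparison by gene, and its 3 TKI258 arrays were above its 3 DMSO arrays. Its log2 change was 0.42, with 8.18 ± 0.28 under TKI258 and 7.76 ± 0.03 under DMSO (SD, n = 3 each), and it did not pass by itself (limma adjusted p = 0.106). It was singled out because data that the comparison did not use differed from the control arrays.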

How the results depend on the processing

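Over the 14 alternatives for the 10 genes (15 for Cdkn1b), no gene changed sign. Genes that fell numbered 5 to 6 and genes that rose 2, except 4 with limma's trend and robust options, where Ccnd2 and Cdk4 passed too. Cdk6 also missed a stricter threshold of 0.01, and Cdkn1b passed in its brightest probe set but not in its second. The shift of Cdkn1b minus Cdkn2c changed sign without DMSO replicate 1 or 2, in a range of -0.0517 to 0.0129 with each array left out, and stayed near 0. Ubiquitin ligase genes that fell numbered 2 at a threshold of 0.01 (2 to 4 with an array left out), and 1 rose with quantile normalization run again, among genes with a mean above 5 and with trend and robust (0 to 1 with an array left out). Cyclins and CDKs outside the core cycle that fell numbered 10 with trend and robust and 3 at a threshold of 0.01 (3 to 7 with an array left out), and 1 S or M phase cyclin gene rose with trend and robust. With arrays centred on their medians 2622 genes were lower and 2497 higher, against 2519 and 2866 as deposited. Same-numbered TKI258 and DMSO arrays had correlations of deviations of 0.02, 0.05 and 0.15, so the numbers were not taken to pair the samples. With the replicate block, 2487 genes were lower and 2877 higher, 6 of the 10 genes fell and 2 rose. With 3 arrays a group, changes as small as those of Ccnd2 and Cdk4 are at the limit of what passes. The cause of each difference between settings was not tested.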

Other observations

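Ano1, the gene nearest to Ccnd1 by profile, is also its neighbour on chromosome 7 in the reference gene table, with 4 protein-coding genes between. This was noticed after the values were seen. Ano1 had 7.11 ± 0.07 under TKI258 and 8.16 ± 0.07 under DMSO (SD, n = 3 each), a log2 change of -1.04, beside -1.02 for Ccnd1. The 4 genes between, Fgf3, Fgf4, Fgf15 and LTO1, had changes of -0.0352, -0.00332, 0.0725 and 0.137 and did not pass. Of the 3 genes beyond Ano1, Cttn, Ppfia1 and Fadd had -0.00163, -0.189 and -0.289, and of the 3 beyond Ccnd1, Tpcn2, Smim38 and Mrgprf had 0.06, -0.02 and -0.11. Of these 12 genes 2 passed in limma, Ano1 and Ccnd1. The 3 FGF genes between had mean signals of 4.56 to 5.57 under TKI258 and 4.59 to 5.57 under DMSO.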
